A study of Mus musculus with 6 samples.

Results

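Type I interferon stimulated genes were examined in RNA-seq of CD11b+ cells, the myeloid fraction that is mostly microglia, from the cortex of mice given repeated systemic lipopolysaccharide (LPS). The 43 genes were taken from a list of classical interferon response genes by symbol, by a rule that uses no measured value but was set with earlier results of these data known, and all 43 were among the 16516 genes of the deposited table. Both groups were male C57BL6/J mice of 8 to 10 weeks that received 4 daily intraperitoneal injections, and their cells were collected on day 7 after the first injection. The NS group was given normal saline, and the 4LPS group was given LPS from E. coli at 500 µg/kg at each injection. Each group held 3 samples, and each sample was a pool of cells from 2 mice, purified on magnetic beads against CD11b, a surface protein that microglia share with monocytes, macrophages, neutrophils and NK cells.

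Type I interferons are secreted proteins that cells make after they sense viral nucleic acid or, through the LPS receptor TLR4 and its adaptor TRIF, bacterial products. They bind the receptor built from IFNAR1 and IFNAR2, whose kinases JAK1 and TYK2 activate transcription factors of the STAT family, and these join IRF9 in a complex that binds the interferon stimulated response element (ISRE) in the promoters of its target genes. The induced proteins sense foreign RNA and DNA, block translation, degrade RNA and modify other proteins, and in the brain microglia are among the cells that express them.

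Total counts were 15158342 to 15746606 per sample. Expression is given as CPM, the count divided by the TMM-scaled library total and multiplied by 1000000, and as the log2 fold change of 4LPS over NS from edgeR's quasi-likelihood test, with a gene called higher or lower at a Benjamini-Hochberg adjusted p under 0.05 over the 13151 genes tested. The authors' description of these cells as microglia was checked on 8 microglial markers. Their summed level was 41837 to 44723 CPM in NS and 40924 to 41473 CPM in 4LPS, with 1 of the 8 called lower. Markers of other cells were summed in the same way. The 13 NK cell markers summed to 8.81 to 14.1 CPM in NS and 118 to 134 CPM in 4LPS, with 12 of 13 called higher, and the 10 T cell markers in the table summed to 6.73 to 8.99 CPM and 26.2 to 30.4 CPM, with 4 of 6 tested called higher. The 10 neutrophil markers summed to 867 to 1309 CPM in NS and 1260 to 1782 CPM in 4LPS (1 called higher), and the 8 monocyte markers to 321 to 404 CPM and 201 to 372 CPM (none called). The 9 dendritic cell markers summed to 36.7 to 52.4 CPM in NS and 50.5 to 71.9 CPM in 4LPS, with 5 called higher, the 6 B cell markers in the table to 29.9 to 34.3 CPM and 68.2 to 73.0 CPM, with 1 of 2 tested called higher, and the 9 markers of border-associated macrophages to 297 to 429 CPM and 244 to 551 CPM, with 2 called higher. Lower in 4LPS were 3 of 7 endothelial markers, which summed to 314 to 647 CPM in NS and 153 to 324 CPM in 4LPS, and 3 of 7 astrocyte markers, which summed to 282 to 297 CPM and 208 to 238 CPM. Choroid plexus markers set the samples apart within both groups, from 649 to 6525 CPM in NS and from 1.97 to 2200 CPM in 4LPS. No marker of these 11 lists that has a row in the deposited table was at 0 in all samples. Listed markers without a row could not be checked. None of the markers is among the 43 genes, and their part in the results below was not tested. In such bulk samples, more cells of a type and more RNA per cell cannot be told apart.

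The ISRE is seen in the promoters of the list itself. RefSeq promoter windows (build GRCm38.p6, 250 bases before to 50 bases after the transcription start) were matched by symbol for 31 of the 43 genes, all but Tor3a, Ifi204, Mx2, Usp18, Mx1, Parp14, Oas2, Rtp4, Parp9, Zbp1, Ifi27l2a and Dhx58. The ISRE core, searched as GAAA, any 2 bases and GAAA again on both strands, was found in 17 of these 31 genes (54.8%), against 3.99% of 27025 genes with a window of the same length. The stretches below carry the matches of genes that the results turn on, written 5′ to 3′ along each gene's strand, with every match in capitals. A match on the opposite strand starts and ends in TTTC. They lie upstream of the start, at chr19:34640765-34640833 (plus strand) for Ifit1, chr19:34583353-34583436 (plus) for Ifit3, chr5:120907526-120907565 (minus) for Oas1a, chr12:26456543-26456592 (minus) for Rsad2, chr4:156200855-156200916 (minus) for Isg15, chr8:71537567-71537622 (minus) for Bst2, chr1:173741821-173741870 (minus) for Ifi207 and chr11:83020829-83020878 (minus) for Slfn8.
Ifit1: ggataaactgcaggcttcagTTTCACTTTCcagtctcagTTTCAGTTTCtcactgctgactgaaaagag
Ifit3: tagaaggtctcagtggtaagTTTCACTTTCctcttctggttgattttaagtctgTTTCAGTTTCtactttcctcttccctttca
Oas1a: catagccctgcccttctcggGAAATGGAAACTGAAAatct
Rsad2: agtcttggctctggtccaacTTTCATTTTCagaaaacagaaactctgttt
Isg15: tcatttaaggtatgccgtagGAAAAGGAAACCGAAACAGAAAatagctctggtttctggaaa
Bst2: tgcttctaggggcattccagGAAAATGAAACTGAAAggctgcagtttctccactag
Ifi207: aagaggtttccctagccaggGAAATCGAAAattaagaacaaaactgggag
Slfn8: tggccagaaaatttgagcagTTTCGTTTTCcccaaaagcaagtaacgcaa

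In Ifit1 and Ifit3 a pair of matches stood apart, and in Oas1a, Bst2 and Isg15 matches overlapped, with 3 in Isg15. The 84 bases shown for Ifit3 also stand, letter for letter, before its neighbour Ifit3b at chr19:34607749-34607832. The interferon gamma activated site, searched as TTCNNNGAA, which is its own reverse complement, was found in 7 of the 31 genes (22.6%), against 9.55% of all genes. Genes with and without an ISRE core were both among those called higher in 4LPS, 9 of the 17 with a match and 7 of the 14 without. Isg15 and Slfn8 hold matches and were not called. A match describes these letters in this window and is not a measured binding site.

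Interferon stimulated genes were mostly higher in 4LPS than in NS, by modest amounts. Of the 43, 24 were called higher and none lower, where 9.95% of all genes tested were called higher and 6.43% lower (16.4% in either direction). Every 4LPS sample lay above every NS sample for 28 of the 43, against 19.9% of all genes, and every 4LPS sample lay below every NS sample for none, against 17.5% of all genes. The log2 fold change was above 0 for 41 of the 43, against 47.3% of all genes, and the exceptions were Herc6 and Ifi35. The median log2 fold change of the 43 was 0.56 (1.48-fold) and that of all genes was -0.02. The range ran from -0.08 for Herc6 to 2.11 for Ifi204. A change of at least 2-fold among the called genes was seen for 9 of the 43, against 2.37% of all genes. No fit that left out 1 sample called any of the 43 lower. The number called higher depended on the sample, as did the share of all genes tested, given here in brackets. It was 15 without NS replicate 1, 15 without NS replicate 2, 30 without NS replicate 3, 14 without 4LPS replicate 1, 18 without 4LPS replicate 2 and 22 without 4LPS replicate 3.

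**Figure D1:**
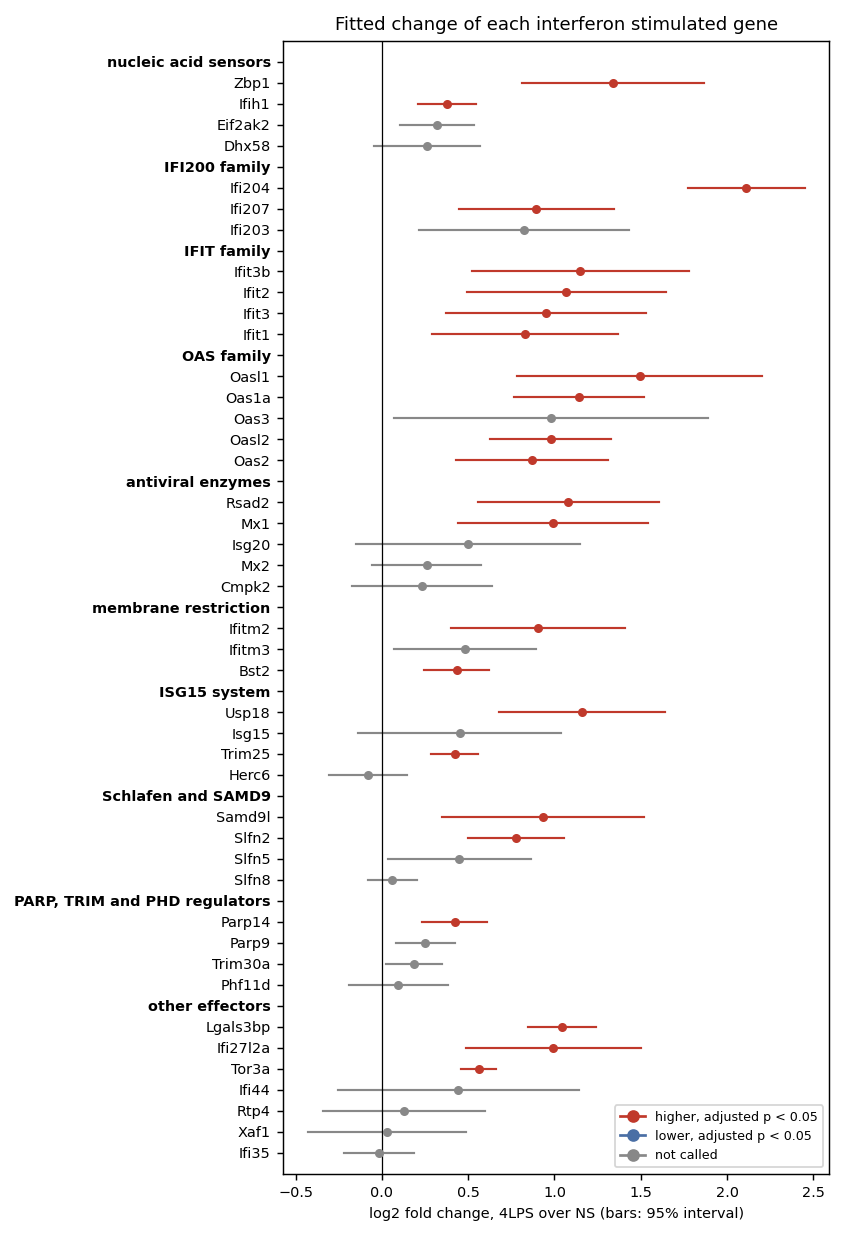
The log2 fold change of 4LPS over NS (x axis) for each of the 43 interferon stimulated genes, with the 95% confidence interval from edgeR as a bar, grouped by role. Ifi204 stands furthest right at 2.11, and Herc6 and Ifi35 are left of 0.

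Summed over the 43 genes, expression was 1285, 1139 and 1286 CPM in the NS samples and 2042, 1847 and 1792 CPM in the 4LPS samples. The groups did not overlap, with a mean in 4LPS of 1894 ± 131 CPM against 1237 ± 84.8 CPM under saline (SD, n = 3), a ratio of 1.53. Lgals3bp contributed the most of any gene to these sums. Without it the sums were 999, 889 and 1053 CPM in NS and 1473, 1346 and 1279 CPM in 4LPS, a ratio of 1.39.

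The samples of a group differed from each other in the same direction over most of the genes. NS replicate 2 was the lowest NS sample for 38 of the 43 genes, where it was the lowest for 34.9% of all genes, and 4LPS replicate 1 was the highest 4LPS sample for 34 of the 43, against 32.8% of all genes. NS replicate 3 was the highest NS sample for 25 of the 43 (42.7% of all genes). The median deviation of the 43 genes from their own mean over the samples was -0.27, -0.57 and -0.12 on the log2 scale in NS and 0.50, 0.22 and 0.18 in 4LPS. By this measure the nearest samples of the groups were NS replicate 3 and 4LPS replicate 3.

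**Figure D2:**
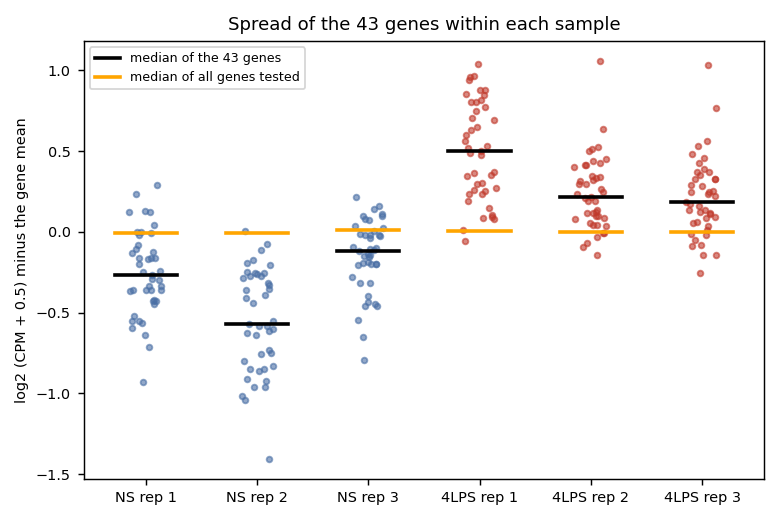
The deviation of each interferon stimulated gene from its mean over the 6 samples, on the log2(CPM + 0.5) scale (y axis), for each sample (x axis), with 1 point per gene. The median was lowest in NS replicate 2 at -0.57 and highest in 4LPS replicate 1 at 0.50.

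Sensors of foreign nucleic acid changed unevenly. Of the 4, Zbp1 and Ifih1 were called higher and Dhx58 and Eif2ak2 were not, where 9.95% of all genes tested were called higher. Zbp1, which binds Z-form nucleic acid and can start cell death, was at 2.96, 1.95 and 2.91 CPM in NS and 7.89, 6.19 and 5.76 CPM in 4LPS. The groups did not overlap, and the change was 2.53-fold (log2 fold change 1.34, SE 0.23, edgeR adjusted p = 0.00735). Ifih1, which encodes the cytosolic double-stranded RNA sensor MDA5, was at 42.5, 37.3 and 42.9 CPM in NS and 54.9, 53.2 and 51.1 CPM in 4LPS, a smaller step of 1.30-fold (SE 0.07 on the log2 scale, edgeR adjusted p = 0.0122). Eif2ak2, the kinase PKR that halts translation on binding double-stranded RNA, was at 52.4, 51.1 and 55.1 CPM in NS and 72.7, 68.0 and 56.8 CPM in 4LPS. Its 4LPS samples lay above its NS samples, with 4LPS replicate 3 close to them, and it missed the threshold (log2 fold change 0.32, SE 0.09, edgeR adjusted p = 0.0535) but passed without 4LPS replicate 3 (adjusted p = 0.0123) or without NS replicate 3 (adjusted p = 0.0493). Dhx58, which encodes the MDA5 cofactor LGP2, was at 21.8, 18.2 and 20.2 CPM in NS and 28.3, 20.5 and 23.3 CPM in 4LPS. Its groups overlapped (log2 fold change 0.26, SE 0.13, edgeR adjusted p = 0.209).

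The IFI200 family, whose proteins bind DNA through HIN domains, held the gene with the highest fold change on the list. Ifi204 was at 12.6, 8.93 and 13.9 CPM in NS and 50.9, 51.6 and 50.6 CPM in 4LPS. The 4LPS samples were close to each other and far above NS, a 4.32-fold change (log2 fold change 2.11, SE 0.15, edgeR adjusted p = 9.61e-05). Ifi207 was at 8.31, 9.62 and 11.5 CPM in NS and 23.5, 15.4 and 15.8 CPM in 4LPS, without overlap (log2 fold change 0.90, SE 0.19, edgeR adjusted p = 0.0194), and lost its call without NS replicate 1 (adjusted p = 0.0776) or NS replicate 2 (adjusted p = 0.0634). Ifi203 was at 6.61, 5.66 and 11.3 CPM in NS and 15.7, 11.1 and 15 CPM in 4LPS. NS replicate 3 reached the lowest 4LPS sample, and the gene was not called (log2 fold change 0.82, SE 0.26, edgeR adjusted p = 0.0689) but passed without NS replicate 3 (adjusted p = 0.00496).

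All 4 IFIT genes, whose proteins bind viral RNA and hold back its translation, were called higher (9.95% of all genes tested). Ifit3b had the largest change, at 3.02, 2.39 and 4.21 CPM in NS and 9.11, 6.87 and 5.42 CPM in 4LPS (2.22-fold, log2 fold change 1.15, SE 0.27, edgeR adjusted p = 0.0271). Ifit1 had the smallest, at 2.77, 2.51 and 4.21 CPM in NS and 6.27, 5.44 and 5.22 CPM in 4LPS (1.78-fold, log2 fold change 0.83, SE 0.23, edgeR adjusted p = 0.0475). Ifit2 and Ifit3 lay between them, at log2 fold changes of 1.07 (SE 0.25, edgeR adjusted p = 0.0256) and 0.95 (SE 0.25, adjusted p = 0.0390). Every 4LPS sample lay above every NS sample for each of the 4, against 19.9% of all genes. The calls were near the threshold. Ifit1 kept its call only without NS replicate 3 (lost at adjusted p = 0.0907 to 0.142), Ifit2 lost it when NS replicate 1, 4LPS replicate 1 or 4LPS replicate 2 was left out (adjusted p = 0.0606 to 0.0818), and Ifit3 and Ifit3b lost it when NS replicate 1, NS replicate 2, 4LPS replicate 1 or 4LPS replicate 2 was left out (adjusted p = 0.0649 to 0.105 and 0.0675 to 0.0933).

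OAS enzymes sense double-stranded RNA and make oligoadenylate, a signal of the antiviral response, and Oasl1 is known to bind RNA without making it. Of the 5 genes, 4 were called higher (9.95% of all genes tested). Oasl1 had the largest change, at 1.51, 0.880 and 1.49 CPM in NS and 4.72, 3.06 and 3.19 CPM in 4LPS (2.82-fold, log2 fold change 1.49, SE 0.31, edgeR adjusted p = 0.0156). Oas2 had the smallest, at 8.24, 6.48 and 7.38 CPM in NS and 17.2, 12.4 and 10.8 CPM in 4LPS (1.83-fold, log2 fold change 0.87, SE 0.19, edgeR adjusted p = 0.0200). Neither overlapped between the groups, but Oasl1 lost its call without 4LPS replicate 1 (adjusted p = 0.0515) and Oas2 without NS replicate 2 (adjusted p = 0.0671). Oas1a (log2 fold change 1.14, SE 0.16, edgeR adjusted p = 0.00331) and Oasl2 (0.98, SE 0.15, adjusted p = 0.00484) kept their calls whichever sample was left out. Oas3 was at 2.14, 1.89 and 4.52 CPM in NS and 7.96, 3.94 and 5.02 CPM in 4LPS, so that NS replicate 3 lay inside the 4LPS range. It was not called (log2 fold change 0.98, SE 0.39, edgeR adjusted p = 0.126), although its fold change was close to that of Oasl2, and it passed without NS replicate 3 (adjusted p = 0.0208).

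**Figure D3:**
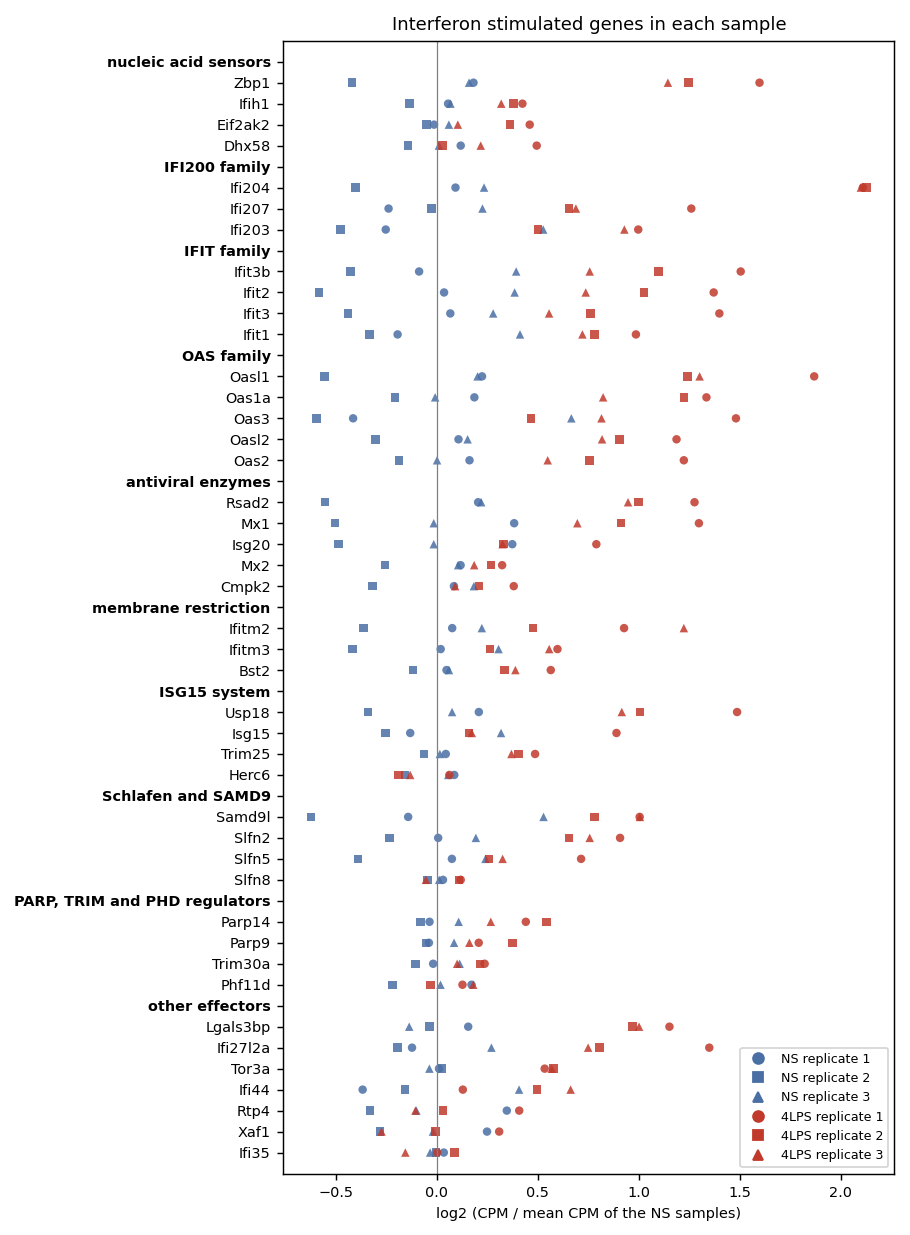
The log2 ratio of CPM to the mean CPM of the NS samples (x axis) for each interferon stimulated gene, with 1 point per sample. Groups that do not overlap, as for Ifi204 (8.93 to 13.9 CPM in NS and 50.6 to 51.6 CPM in 4LPS), stand beside genes with overlapping groups, such as Herc6 (30.2 to 35.8 and 29.6 to 35.2 CPM).

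Among 5 genes for antiviral enzymes, Rsad2 and Mx1 were called higher, where 9.95% of all genes tested were. Rsad2, which encodes viperin, an enzyme that makes a chain-terminating nucleotide, was at 4.78, 2.83 and 4.83 CPM in NS and 10.1, 8.29 and 8.0 CPM in 4LPS (2.11-fold, log2 fold change 1.08, SE 0.23, edgeR adjusted p = 0.0171). The GTPase gene Mx1 was at 10.7, 5.78 and 8.12 CPM in NS and 20.2, 15.4 and 13.3 CPM in 4LPS (1.99-fold, log2 fold change 0.99, SE 0.24, edgeR adjusted p = 0.0285). Their groups did not overlap. Rsad2 lost its call without 4LPS replicate 1 (adjusted p = 0.0534), and Mx1 lost it when NS replicate 2, 4LPS replicate 1 or 4LPS replicate 2 was left out (adjusted p = 0.0644 to 0.0754). The neighbours of these genes on the chromosome changed less. Cmpk2, a mitochondrial nucleotide kinase gene that lies beside Rsad2 on chromosome 12, was at 6.48, 4.90 and 6.94 CPM in NS and 7.96, 7.07 and 6.51 CPM in 4LPS, with overlap (log2 fold change 0.23, SE 0.17, edgeR adjusted p = 0.380). Mx2, the neighbour of Mx1 on chromosome 16, was at 9.13, 7.04 and 9.05 CPM in NS and 10.5, 10.1 and 9.56 CPM in 4LPS, without overlap but close (0.26, SE 0.14, adjusted p = 0.218). The exonuclease gene Isg20 was not called either (0.50, SE 0.28, adjusted p = 0.246).

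Membrane proteins that hold back viral entry or release were among the more highly expressed genes of the list. Ifitm2, whose protein acts on virus entry through endosomes, was at 9.13, 6.73 and 10.1 CPM in NS and 16.5, 12 and 20.2 CPM in 4LPS (1.88-fold, log2 fold change 0.91, SE 0.22, edgeR adjusted p = 0.0283). Bst2, the gene of tetherin, which holds budding virus at the cell surface, was at 44.4, 39.6 and 44.8 CPM in NS and 63.5, 54.2 and 56.3 CPM in 4LPS (1.35-fold, log2 fold change 0.43, SE 0.08, edgeR adjusted p = 0.0113). Both were without overlap. The call of Ifitm2 was lost when NS replicate 1, NS replicate 2, 4LPS replicate 1 or 4LPS replicate 3 was left out (adjusted p = 0.0655 to 0.0849), and that of Bst2 was kept in each case. Ifitm3 was at 23.2, 17.2 and 28.3 CPM in NS and 34.7, 27.5 and 33.7 CPM in 4LPS, where NS replicate 3 lay just above 4LPS replicate 2. It was not called (log2 fold change 0.48, SE 0.18, edgeR adjusted p = 0.103), and passed without NS replicate 3 (adjusted p = 0.0221).

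The ISG15 system attaches the ubiquitin-like protein ISG15 to other proteins. Usp18, whose protein removes ISG15 and also blocks the interferon receptor, was at 5.98, 4.09 and 5.45 CPM in NS and 14.5, 10.4 and 9.76 CPM in 4LPS (2.23-fold, log2 fold change 1.16, SE 0.21, edgeR adjusted p = 0.00922). Trim25, a ligase gene, was at 51.0, 47.3 and 50.02 CPM in NS and 69.3, 65.5 and 63.9 CPM in 4LPS (1.34-fold, log2 fold change 0.42, SE 0.06, edgeR adjusted p = 0.00313). These 2 genes were separated between the groups, as were 19.9% of all genes in this direction, and the other 2 genes were not. Isg15 itself was at 4.72, 4.34 and 6.45 CPM in NS and 9.58, 5.78 and 5.83 CPM in 4LPS, where only 4LPS replicate 1 lay above the highest NS sample (log2 fold change 0.45, SE 0.25, edgeR adjusted p = 0.248). Herc6, which encodes the main mouse ligase for ISG15, was at 35.8, 30.2 and 35.1 CPM in NS and 35.2, 29.6 and 30.8 CPM in 4LPS (log2 fold change -0.08, SE 0.10, 95% interval -0.31 to 0.14, edgeR adjusted p = 0.592).

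Some proteins of the Schlafen and SAMD9 families are known to restrict translation. Samd9l was at 13.6, 9.75 and 21.6 CPM in NS and 30.1, 25.8 and 30.1 CPM in 4LPS (1.91-fold, log2 fold change 0.93, SE 0.25, edgeR adjusted p = 0.0433). The NS samples ranged widely without reaching 4LPS, and the call was kept only without NS replicate 3 (lost at adjusted p = 0.0711 to 0.137). Slfn2, known for keeping T cells quiescent, was at 22.7, 19.2 and 25.8 CPM in NS and 42.3, 35.5 and 38.1 CPM in 4LPS, without overlap (log2 fold change 0.78, SE 0.12, edgeR adjusted p = 0.00476). Slfn5 was at 27.1, 19.6 and 30.4 CPM in NS and 42.2, 30.7 and 32.2 CPM in 4LPS, without overlap but close (0.45, SE 0.18, adjusted p = 0.125). Slfn8 was the most highly counted gene of this group and nearly level, at 82.4, 78.2 and 81.4 CPM in NS and 87.6, 87.1 and 77.8 CPM in 4LPS (0.06, SE 0.06, 95% interval -0.08 to 0.20, edgeR adjusted p = 0.522).

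Among regulators with PARP, TRIM and PHD domains, 1 of 4 was called higher, where 9.95% of all genes tested were. Parp14, an ADP-ribosyltransferase gene, was at 116, 113 and 129 CPM in NS and 162, 174 and 144 CPM in 4LPS, without overlap (1.34-fold, log2 fold change 0.42, SE 0.08, edgeR adjusted p = 0.0122), and narrowly lost its call without NS replicate 1 (adjusted p = 0.0509). Parp9, its neighbour and partner gene, was at 52.9, 52.4 and 57.7 CPM in NS and 62.8, 70.5 and 60.8 CPM in 4LPS, again without overlap, and narrowly missed the threshold (0.25, SE 0.07, adjusted p = 0.0552). It passed without NS replicate 3 (adjusted p = 0.0321). Trim30a, known to restrain inflammatory signalling, was not called (0.19, SE 0.07, adjusted p = 0.105) and passed without NS replicate 3 (adjusted p = 0.0286). Phf11d had the smallest change, at 15.2, 11.6 and 13.6 CPM in NS and 14.7, 13.2 and 15.3 CPM in 4LPS (0.10, SE 0.12, adjusted p = 0.627).

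Of the other 7 genes, 3 were called higher (9.95% of all genes tested). Lgals3bp, which encodes a secreted glycoprotein that binds galectins, was at 285, 250 and 233 CPM in NS and 569, 501 and 513 CPM in 4LPS. The groups were far apart (2.06-fold, log2 fold change 1.04, SE 0.08, edgeR adjusted p = 0.000203). Tor3a, a torsin family ATPase gene, was at 93.8, 94.6 and 90.7 CPM in NS and 135, 139 and 138 CPM in 4LPS, with the smallest standard error of the list (0.56, SE 0.04, adjusted p = 0.000183). Ifi27l2a was higher too, at log2 fold change 0.99 (SE 0.22, edgeR adjusted p = 0.0204), and lost its call when NS replicate 1, NS replicate 2 or 4LPS replicate 1 was left out (adjusted p = 0.0538 to 0.0773). The remaining genes overlapped between the groups. Ifi35 was level, at 24.3, 23.6 and 23.2 CPM in NS and 23.7, 25.2 and 21.3 CPM in 4LPS (log2 fold change -0.02, SE 0.09, 95% interval -0.22 to 0.19, edgeR adjusted p = 0.909). Xaf1, whose protein binds the apoptosis inhibitor XIAP, was at 0.03 (95% interval -0.43 to 0.49), Rtp4, a receptor chaperone gene, at 0.13 (95% interval -0.34 to 0.60), and Ifi44, with the lowest counts, at 0.44 (95% interval -0.25 to 1.14).

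Levels between genes were compared in FPKM, which is per length of transcript. In 4LPS the highest were Lgals3bp at 266 ± 20.1, Bst2 at 108 ± 10.0, Ifitm3 at 85.4 ± 12.3, Ifitm2 at 46.2 ± 12.9, Ifi27l2a at 45.6 ± 11.0 and Tor3a at 44.5 ± 0.492 FPKM (SD, n = 3). The order of Ifitm2, Ifi27l2a and Tor3a was within their spread. In NS the same 3 genes led, Lgals3bp at 138, Bst2 at 84.5 and Ifitm3 at 64.7 FPKM. At the other end stood Ifi44 at 0.793, Oas3 at 1.23, Oasl1 at 1.85 and Ifit1 at 2.32 FPKM in 4LPS. Below a level of 10 FPKM were 29 of the 43 genes in NS and 24 in 4LPS. Ifi204 moved from 6.06 to 24.5 FPKM. Zbp1, the gene with the next highest fold change after Oasl1, was at 2.17 FPKM in NS and 4.97 FPKM in 4LPS. Isg15 was at 11.3 FPKM in NS and 14.5 FPKM in 4LPS.

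**Figure D4:**
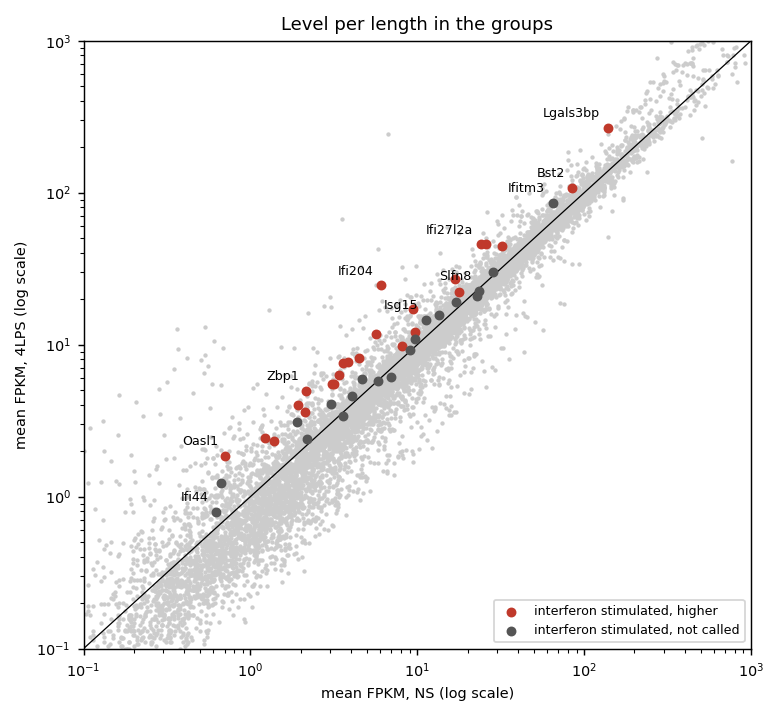
Mean expression of each interferon stimulated gene in NS (x axis) and 4LPS (y axis), in FPKM on log axes, with 1 point per gene. Lgals3bp is highest at 138 and 266 FPKM, and Ifi204 is far above the diagonal at 6.06 and 24.5 FPKM.

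Several of the families lie in clusters of closely related copies, where the count of each copy is uncertain because reads can match more than 1 of them. Ifi204, Ifit3, Ifit3b, Oas1a, Trim30a and Phf11d had fractional counts, the mark of reads that the authors' counting shared between genes. Most genes of the IFI200 cluster were higher, including genes outside the list, where 9.95% of all genes tested were called higher. The cluster spans chr1:173178445-173859456 (GRCm39, gene positions from GENCODE vM39), and 8 of its 11 genes tested were called higher, among them Ifi205 (log2 fold change 2.02, SE 0.47), Ifi206 (1.74, SE 0.31), Ifi209 (1.72, SE 0.14), Ifi211 (1.52, SE 0.27), Ifi213 (1.5, SE 0.34) and Mndal (1.04, SE 0.25). Counts of 5 of the 11 were fractional. Aim2, the DNA sensor of the inflammasome at the end of this cluster, was at 79.4, 72.9 and 88.8 CPM in NS and 77.0, 84.1 and 76.6 CPM in 4LPS and was not called (-0.02, SE 0.08, edgeR adjusted p = 0.880). Ifi205 lost its call without any sample but NS replicate 3 (adjusted p = 0.0585 to 0.0933), Mndal likewise (0.0644 to 0.104), and Ifi213 without NS replicate 1 or NS replicate 2 (adjusted p = 0.0591 and 0.0740).

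Other clusters were mixed, to be read beside the 9.95% of all genes tested that were called higher. The IFIT cluster at chr19:34527932-34639833 had 4 of 4 genes tested called higher. In the OAS1 to OAS3 cluster at chr5:120868398-121059724, 2 of 6 were higher, and both genes of the OASL cluster at chr5:115034997-115075974 were higher. In the Schlafen cluster at chr11:82824893-83177552, 1 of 8 genes tested was higher, and in the IFITM cluster at chr7:140528871-140597837, 1 of 4. The counts of the Schlafen and IFITM clusters are too few to set apart from that share. The other clusters also held few genes, and no cluster was tested as a set. Of the PHF11 genes, Phf11a (1.27, SE 0.29) and Phf11b (0.53, SE 0.12) were called higher where Phf11d on the list was not, although Phf11a lost its call when NS replicate 1, NS replicate 2, 4LPS replicate 1 or 4LPS replicate 3 was left out (adjusted p = 0.0508 to 0.0861) and Phf11b when NS replicate 1, NS replicate 2, 4LPS replicate 1 or 4LPS replicate 2 was left out (adjusted p = 0.0574 to 0.0664), and all 4 PHF11 genes had fractional counts. Parp10 (0.29, SE 0.05) and Parp12 (0.35, SE 0.05) were higher. Trim30c, a copy beside Trim30a, was lower (-0.68, SE 0.16, edgeR adjusted p = 0.0282) and lost its call when NS replicate 1, 4LPS replicate 2 or 4LPS replicate 3 was left out (adjusted p = 0.0725 to 0.0946).

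**Figure D5:**
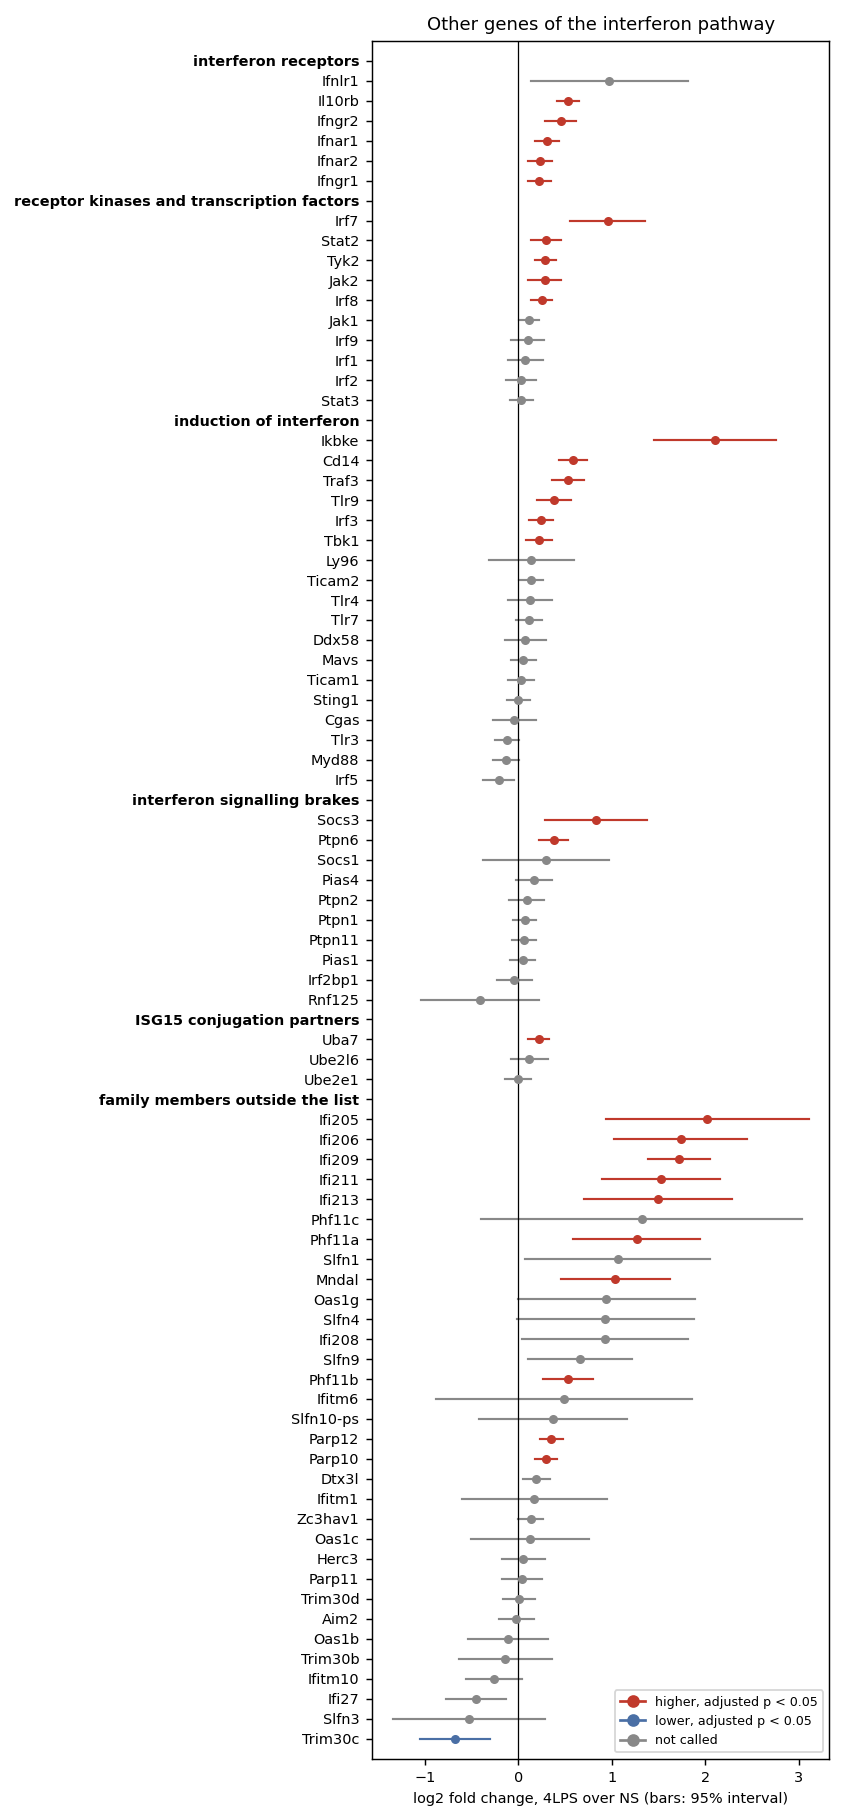
The log2 fold change of 4LPS over NS (x axis) with its 95% confidence interval from edgeR for interferon pathway genes outside the list of 43, grouped by role. Ikbke at 2.10 and the IFI200 genes are furthest right, and Trim30c at -0.68 is on the left. Not every gene tested is drawn.

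Genes of the interferon pathway were followed from ligand to transcription factor. Of 117 further interferon pathway and family genes, 81 were tested, and 30 were called higher and 2 lower, to be read beside the 9.95% of all genes called higher and 6.43% called lower. Among the 21 interferon genes listed, 3 were in the table and none had enough counts to be tested. Ifnb1, the interferon beta gene, was counted 0 times over the 3 NS samples and 1 time over the 3 4LPS samples, and 0 of 46367114 counts allows a level of up to 0.0647 CPM, for counting error only. Ifng, the type II interferon gene that NK cells and T cells are known to express, had 4 counts in NS and 20 in 4LPS, or 0, 0.189 and 0.0620 CPM against 0.405, 0.476 and 0.475 CPM. Its 4LPS samples lay above its NS samples at this very low level. NK cell markers summed to 8.81 to 14.1 CPM in NS and 118 to 134 CPM in 4LPS, and the source of the Ifng counts was not tested. A change in Ifnb1 RNA was not detectable at this depth. Interferon genes absent from the table, among them the interferon alpha genes listed, could not be assessed.

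The receptor genes were higher by small amounts in 5 of 6 (9.95% of all genes were called higher). Ifnar1 was at 133, 120 and 131 CPM in NS and 154, 161 and 160 CPM in 4LPS (1.23-fold, log2 fold change 0.30, SE 0.05, edgeR adjusted p = 0.00931). Ifnar2 was at 189, 178 and 195 CPM in NS and 216, 212 and 233 CPM in 4LPS (1.18-fold, log2 fold change 0.23, SE 0.06, edgeR adjusted p = 0.0275). In CPM the groups did not overlap for either. Ifnar2 lost its call when NS replicate 1, NS replicate 2, 4LPS replicate 1 or 4LPS replicate 3 was left out (adjusted p = 0.0534 to 0.0754). These small steps also depended on the scaling. Without TMM scaling Ifnar2 was not called (edgeR adjusted p = 0.103). With limma on log2(FPKM + 1), neither Ifnar2 (adjusted p = 0.373) nor Ifnar1 (adjusted p = 0.0566) was called. In FPKM the groups overlapped for Ifnar2, at 131 to 144 in NS and 137 to 159 in 4LPS. The interferon gamma receptor genes Ifngr1 (0.22, SE 0.05) and Ifngr2 (0.45, SE 0.07) and Il10rb (0.53, SE 0.05), a receptor chain shared by interferon lambda and interleukin 10, were also called higher, Ifngr1 not when NS replicate 1, NS replicate 2, 4LPS replicate 2 or 4LPS replicate 3 was left out (adjusted p = 0.0674 to 0.0936). Ifnlr1 was not called (0.97, SE 0.36, adjusted p = 0.105).

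Of the kinases and transcription factors, 6 of 11 were called higher (9.95% of all genes). Irf7, the factor that amplifies interferon production, was at 11.3, 8.68 and 13.9 CPM in NS and 24.4, 19.8 and 21.6 CPM in 4LPS (1.94-fold, log2 fold change 0.96, SE 0.17, edgeR adjusted p = 0.00935). Its groups did not overlap, and it kept its call whichever sample was left out, as did Irf8 (0.25, SE 0.05) and Tyk2 (0.29, SE 0.05). Stat2, at 50.8, 49.8 and 53.9 CPM in NS and 63.1, 68.0 and 59.0 CPM in 4LPS (0.30, SE 0.07, adjusted p = 0.0243), lost its call when NS replicate 1, NS replicate 2, 4LPS replicate 1 or 4LPS replicate 2 was left out (adjusted p = 0.0561 to 0.0865), and Jak2 (0.28, SE 0.08) lost it without any sample but NS replicate 3 (adjusted p = 0.0767 to 0.133). Irf9, which brings the STAT proteins to the ISRE, was at 65.5, 59.3 and 66.3 CPM in NS and 74.5, 64.4 and 65.8 CPM in 4LPS, with overlap (0.10, SE 0.08, edgeR adjusted p = 0.386). Jak1, Stat3, Irf1 and Irf2 were not called.

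Genes that act before interferon is made were called higher in 6 of 18 tested (9.95% of all genes). Ikbke, an IRF3 and IRF7 kinase gene, was low and changed most, at 1.64, 1.07 and 1.61 CPM in NS and 5.67, 4.83 and 8.14 CPM in 4LPS (4.30-fold, log2 fold change 2.10, SE 0.28, edgeR adjusted p = 0.00256). Cd14 (0.58, SE 0.07), the LPS co-receptor gene, and Traf3 (0.53, SE 0.07) were higher in each fit that left out 1 sample. Tlr9 (0.38, SE 0.08) lost its call when NS replicate 1, 4LPS replicate 1 or 4LPS replicate 3 was left out (adjusted p = 0.0616 to 0.0739), Irf3 (0.25, SE 0.06) when NS replicate 1, NS replicate 2, 4LPS replicate 1 or 4LPS replicate 3 was left out (adjusted p = 0.0507 to 0.0824), and Tbk1 (0.22, SE 0.06) without any sample but NS replicate 3 (adjusted p = 0.0648 to 0.129). Of the 10 genes that restrain the pathway, 2 were called higher, a count near the 9.95% of all genes. These were Socs3, at 70.9, 105 and 123 CPM in NS and 141, 158 and 233 CPM in 4LPS (0.83, SE 0.24, edgeR adjusted p = 0.0487), and the phosphatase gene Ptpn6 (0.38, SE 0.07). Socs3 lost its call when NS replicate 1, NS replicate 2, 4LPS replicate 2 or 4LPS replicate 3 was left out (adjusted p = 0.0799 to 0.126). Of 3 partners in ISG15 conjugation, 1 was called, too few to set beside that share. The activating enzyme gene Uba7 was higher (0.22, SE 0.05) and lost its call when NS replicate 1, NS replicate 2, 4LPS replicate 1 or 4LPS replicate 3 was left out (adjusted p = 0.0517 to 0.0718).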

How the data were processed

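RNA-seq was carried out on CD11b+ cells of the cortex, in 3 NS and 3 4LPS samples grouped by their labels. The authors filtered reads with SOAPnuke, used HISAT2 (2.0.4) for alignment to the genome along with Bowtie2 (2.2.5), and took gene levels from RSEM (1.2.8). Their processing notes also name DESeq2 (1.16.1). The methods state mm39, and the processing notes name mm39 and mm10. For the annotation, no name was given in the sources used here. The deposited table gives expected counts per gene, of which 2.77% were not whole, and FPKM, both made by the authors with RSEM. The deposited TPM values, the normalised counts (a signal scaled per sample by the authors) and the authors' group means were not used.

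Expected counts were rounded to whole numbers, genes with low counts were removed (filterByExpr), and the groups were compared with edgeR 4.0.16 (R 4.3.3) with TMM factors and a quasi-likelihood test, adjusted over the 13151 genes left. SE was taken as the absolute log2 fold change over the square root of the F statistic. The procedure was tested on simulated data. P-values measure the spread between these samples, which are separate pools of 2 mice. Alternatives were other scalings, filters and tools (DESeq2 1.42.0, limma 3.58.1), a replicate block and leaving out each sample. Values per sample were given for the largest and smallest fold change in each role, and for genes whose call differed from the rest of their role, and further pathway genes were named where they passed, along with Ifnb1, Ifng, Ifnar1, Ifnar2, Stat2 and Irf9. Aim2, Ifnlr1, Jak1, Stat3, Irf1 and Irf2, and the further genes given per sample, were chosen after their values were seen. The genes, lists and roles were chosen with earlier results of these data known. Gene positions are from GENCODE vM39 (GRCm39) by symbol, and promoters from RefSeq (GRCm38.p6). Some genes are counted in the lists but are not reported here.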

Additional observations from a re-analysis of the deposited data

How the results depend on the processing

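Of the 24 interferon stimulated genes called higher, 10 passed in each of the 16 alternatives (Zbp1, Ifi204, Oas1a, Oasl2, Bst2, Usp18, Trim25, Slfn2, Lgals3bp and Tor3a) and 14 lost the threshold in at least 1. Of the 19 not called, 6 passed in at least 1 (Eif2ak2, Ifi203, Oas3, Ifitm3, Parp9 and Trim30a), and 5 changed sign without being called (Slfn8, Phf11d, Ifi35, Xaf1 and Rtp4). No called gene changed sign. The number of the 43 called higher was 20 to 28 under the other scalings, filters and tools, with none lower. Of the 43, 40 were tested under the filter of at least 50 counts in 3 samples, and 42 with limma on FPKM. Leaving out 1 sample gave 14 to 30 of the 43, 781 to 1629 of all genes higher and 363 to 1215 lower, where the main counts were 1308 and 845, and 16 to 33 pathway genes higher and 1 to 3 lower, where the main counts were 30 and 2. Without a composition factor, 1711 genes and 6 pathway genes were lower, and the median of all genes moved to -0.11 on the log2 scale. With limma on log2(FPKM + 1), 823 genes were higher and 1486 lower, and 21 pathway genes were higher and 6 lower. Pathway genes that lost their calls as higher without a composition factor were Ifnar2, Stat2, Ifngr1, Jak2, Tbk1, Irf3, Socs3 and Uba7. The same genes and Ifnar1 lost theirs with limma on log2(FPKM + 1). With log2(FPKM + 0.1), 813 genes were higher and 1454 lower, and 21 pathway genes were higher and 6 lower. DESeq2 called 4 pathway genes lower. The share of all called genes that were higher was 60.8% in the main fit, 34.6% without a composition factor, 35.6% and 35.9% with FPKM, and 72.0% without 4LPS replicate 2. The cause of these shifts was not tested. Samples with the same replicate number did not all deviate together (correlation 0.50, -0.25 and 0.11). Pairs with different numbers ran from -0.55 to 0.46, so the numbers were not taken as pairs. With a replicate block 25 of the 43 were higher, 23 of them among the 24, with 1275 genes higher and 1081 lower. Low counts limit Ifi44, Oasl1 and the interferon genes that are in the table.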
